A study of Mus musculus with 8 samples.

Results

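The genes described here build and run the mitotic spindle. A listed set of 27 genes holds mitotic kinases, cyclins, checkpoint proteins and kinetochore proteins, and 35 more rows of the table were added by name, 24 kinesins (Kif) and 11 centromere proteins (Cenp, with Cenpv left out). In all, 62 of the 16434 genes of the deposited table were members, among them 27 kinesins and 14 Cenp genes. By known function, 47 were counted as mitotic machinery and 15 as kinesins of cargo transport or cilia. Kif24, a kinesin of centrioles and cilium control, was counted with the mitotic kinesins. The members were chosen by name and role, but with earlier results of these data known.

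RNA from bone marrow of C57BL/6 mice aged 8 to 10 weeks was sequenced in 8 libraries of sorted cells, 1 for each group. The 4 leukaemias followed N-Myc overexpression and were GFP+: B-ALL (B-cell acute lymphoblastic leukaemia, B220+), T-ALL (T-cell acute lymphoblastic leukaemia, CD3+), AML (acute myeloid leukaemia, Mac1+ Gr1+) and AUL (acute undifferentiated leukaemia, negative for B220, CD3, Mac1 and Gr1). The 4 normal populations were sorted from normal marrow by the same antigens without GFP, and are called normal B, T, myeloid and lineage-negative. The promoter that drove N-Myc, the number of mice behind each library and the origin of the GFP+ cells were not given in the sources used here, and a normal library is a gate that can hold several stages and cell types. Values are listed below in the order B-ALL, T-ALL, AML and AUL, against the normal populations in the same order of gates. They are FPKM, fragments scaled by transcript length and by mapped reads. The lengths that matched these values were means over all annotated transcripts of a gene, so levels of different genes compare only roughly.

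A cell enters mitosis when cyclin B and the kinase CDK1 become active together. Polo-like and Aurora kinases then mature the spindle poles and correct faulty attachments, and the checkpoint kinases BUB1, BUBR1 and TTK hold anaphase until every kinetochore is attached. Kinetochores are built on nucleosomes that carry the histone CENP-A, through an inner layer that stays on the centromere and an outer layer that grips microtubules, while mitotic kinesins slide, shorten or bundle those microtubules. Many of these genes are transcribed in G2 and mitosis from promoters with a cell cycle genes homology region, bound by the MuvB complex with B-MYB or FOXM1, and CCAAT boxes bound by NF-Y. In marrow they are known as genes of dividing progenitors and precursors, and they are low in resting lymphocytes.

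Depth was 33800000 to 52300000 fragments per library, as recovered from the steps of the FPKM values, and the listed genes rested on 58 to 38144 fragments each. Mycn was 719 to 1858 FPKM in the leukaemias and 0.518 to 5.24 in the normal libraries, so the libraries matched their labels by Mycn. Some libraries held marker RNA of cell types outside their gate. The 7 neutrophil markers, of cells that the myeloid gate takes in, summed to 81789 FPKM in normal myeloid cells against 457 to 8392 in the other libraries. In B-ALL they summed to 4919 against 1126 in normal B cells, and 6 T-cell markers summed to 252 against 37.1. The 6 B-cell markers summed to 630 in normal T cells and 650 in normal lineage-negative cells, and none of them was at 0 there. The 6 T-cell markers summed to 1290 in AUL, although its gate was negative for CD3, against 1696 in T-ALL. Normal lineage-negative cells also had the highest sums of promyelocyte (10647) and basophil markers (2505). The part of these cells in the results below was not tested. In such bulk libraries, fewer dividing cells and less RNA per dividing cell cannot be told apart.

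Promoter windows were taken from RefSeq (GRCm38.p6) for the 53 of 62 members that matched by symbol. They ran from 250 bases before to 50 after the annotated start, and all 32851 promoters of the same length served as background. The 53 members had 58 windows. A member was counted once if any of its windows matched, whereas the background was counted by window. A homology region was searched as TTTGAA and an NF-Y site as CCAAT, on both strands. The windows below show 120 bases before to 30 after the start of 4 genes of mitotic entry, checkpoint and exit, 2 spindle motors and 1 cargo kinesin, with every match in capitals, and were chosen to show the layouts found. Kif23 is shown because its level departs from those of the other motors, and Kif3b as a cargo kinesin that was lower in each leukaemia. Positions are Cdk1 chr10:69352883-69353032, minus strand; Ccnb2 chr9:70421525-70421674, minus strand; Cdc20 chr4:118437314-118437463, minus strand. Further positions are Ttk chr9:83834569-83834718, plus strand; Kif11 chr19:37376262-37376411, plus strand; Kif23 chr9:61946770-61946919, minus strand; Kif3b chr2:153291296-153291445, plus strand.
Cdk1: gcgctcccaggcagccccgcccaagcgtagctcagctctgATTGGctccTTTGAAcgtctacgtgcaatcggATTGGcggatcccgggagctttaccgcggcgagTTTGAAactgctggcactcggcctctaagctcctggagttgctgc
Ccnb2: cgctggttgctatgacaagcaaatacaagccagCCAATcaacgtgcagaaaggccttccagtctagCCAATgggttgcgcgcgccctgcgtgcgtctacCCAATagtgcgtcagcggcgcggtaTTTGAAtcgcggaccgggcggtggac
Cdc20: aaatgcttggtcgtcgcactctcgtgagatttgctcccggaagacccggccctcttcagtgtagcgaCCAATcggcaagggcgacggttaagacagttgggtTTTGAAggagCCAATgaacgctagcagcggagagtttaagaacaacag
Ttk: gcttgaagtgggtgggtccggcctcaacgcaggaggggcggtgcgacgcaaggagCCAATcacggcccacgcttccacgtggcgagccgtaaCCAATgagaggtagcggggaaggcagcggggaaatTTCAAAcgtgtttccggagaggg
Kif11: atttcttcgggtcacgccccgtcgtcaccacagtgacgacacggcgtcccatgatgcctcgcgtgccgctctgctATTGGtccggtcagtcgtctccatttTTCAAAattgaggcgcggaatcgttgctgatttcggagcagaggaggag
Kif23: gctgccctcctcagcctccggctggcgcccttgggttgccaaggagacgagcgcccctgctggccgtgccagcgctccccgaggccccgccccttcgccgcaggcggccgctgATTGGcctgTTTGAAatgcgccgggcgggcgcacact
Kif3b: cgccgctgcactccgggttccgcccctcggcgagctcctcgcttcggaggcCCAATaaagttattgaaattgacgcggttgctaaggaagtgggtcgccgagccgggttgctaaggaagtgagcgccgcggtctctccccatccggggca

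Most mitotic promoters held these letters. TTTGAA was present in 25 of 41 mitotic machinery members with a window (61.0%), in 3 of 12 cargo or ciliary kinesins (25.0%) and in 17.9% of all promoters. CCAAT was present in 32 of the 41 (78.0%), in 4 of the 12 cargo kinesins (33.3%) and in 37.4% of all promoters, and at least 2 copies were present in 20 of the 41 (48.8%) against 11.7%. Both motifs stood together in 21 of the 41 (51.2%) against 6.95% of all promoters. They can share at most a single base. Of 32 TTTGAA matches in mitotic members, 22 lay within 50 bases of the start, as in the Cdk1, Cdc20 and Ttk windows. The mitotic kinesins and the inner kinetochore differed in layout. TTTGAA was found in 9 of 11 mitotic kinesins but in 3 of 10 inner kinetochore genes, whereas CCAAT was found in 7 of 11 and 9 of 10. The E-box CACGTG, the core sequence that MYC proteins bind, was found in 1 of 41 mitotic members (2.44%) and in 7.15% of all promoters. A match is a run of letters and not a known binding site. Members with TTTGAA had a median difference between leukaemia and normal of 0.99 (25 genes), and those without had 0.95 (16 genes), so the medians were close. With a window from 100 bases before the start, TTTGAA was present in 22 of the 41 (53.7%) against 8.01% of all promoters.

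**Figure D1:**
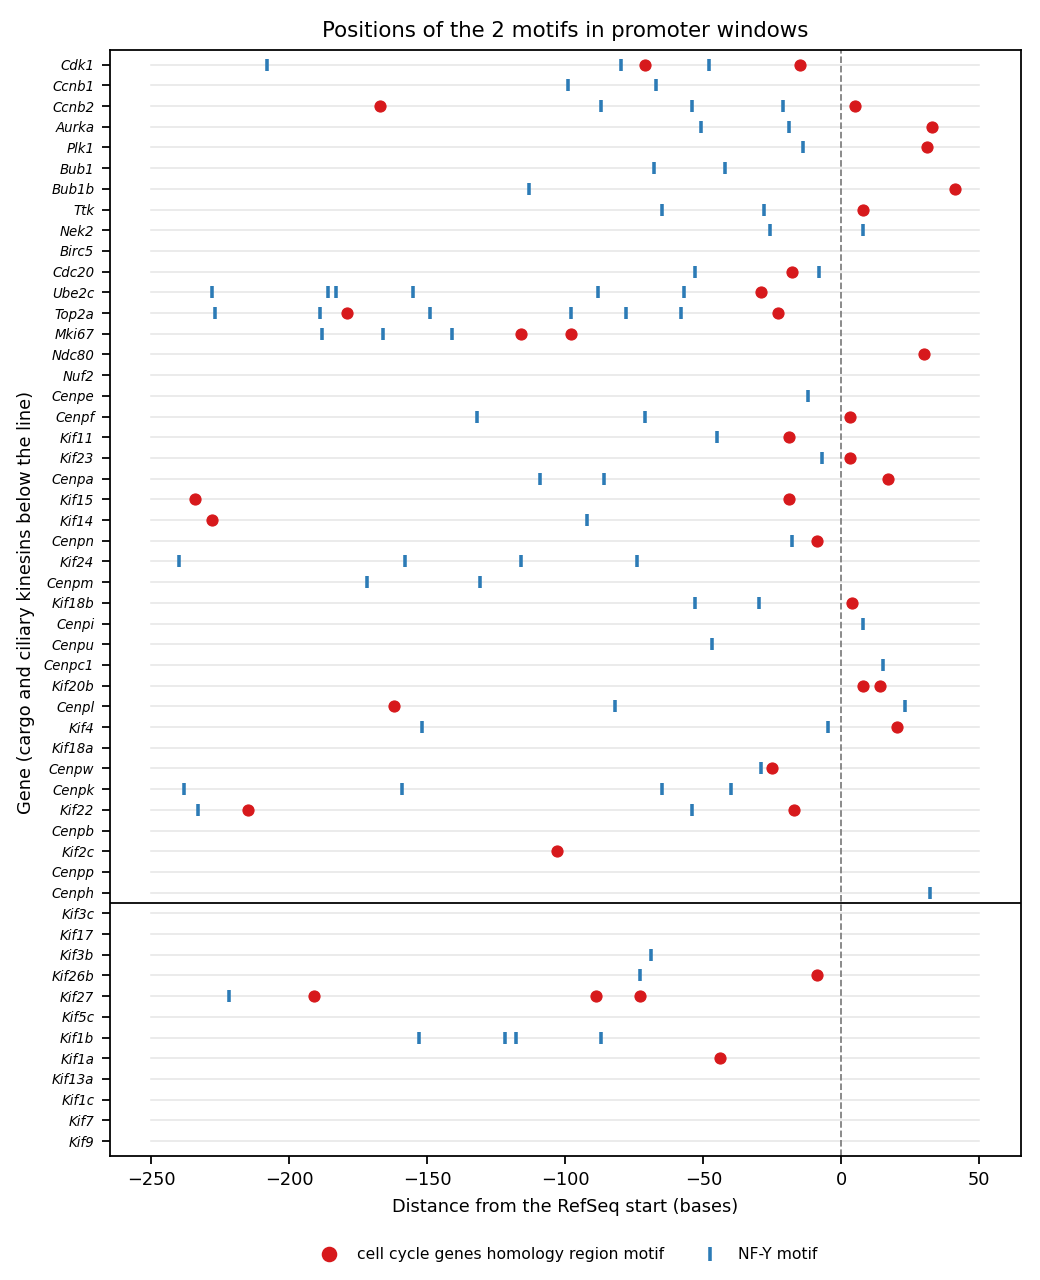
Positions of TTTGAA (red circles) and CCAAT (blue bars) on either strand, in bases from the RefSeq start, for 41 mitotic members above the black line and 12 cargo or ciliary kinesins below it. Of the 32 red circles above the line, 22 lie within 50 bases of the start.

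Across the 4 gates, mitotic genes were on the higher side in the leukaemias, but no member passed the test. The mean difference of log2(FPKM + 1), leukaemia minus normal, was positive for 27 of 27 listed genes, with a median of 0.99 and a range of 0.22 to 1.71, while the median of all tested genes was -0.08. By limma with the gate as a block and Benjamini-Hochberg adjustment over 11071 genes, 0 of the 58 members with enough expression passed in either direction. For comparison, 3.69% of all genes tested passed, 1.26% higher and 2.42% lower. At an unadjusted p under 0.05, 23 members were higher and 1 was lower, against 17.6% and 17.8% of all genes. The lowest limma adjusted p of a member was 0.063. The fit left 3 residual degrees of freedom, or 7.69 in total after limma borrowed variance from all tested genes. The p-values still rest only on the spread between these single libraries. Without the T gate the listed median was 0.57 and 24 of 27 were positive, since the T gate had much larger differences than the others. Median-ratio scaling took its factors from the genes above 0 in every library. It divided normal myeloid values by 0.59 and those of the other libraries by 1.02 to 1.17. Under it the listed median was 0.75 and 26 of 27 were positive. That scaling moved the median of all genes from -0.08 to -0.24, so it did not set the typical tested gene equal between classes.

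**Figure D2:**
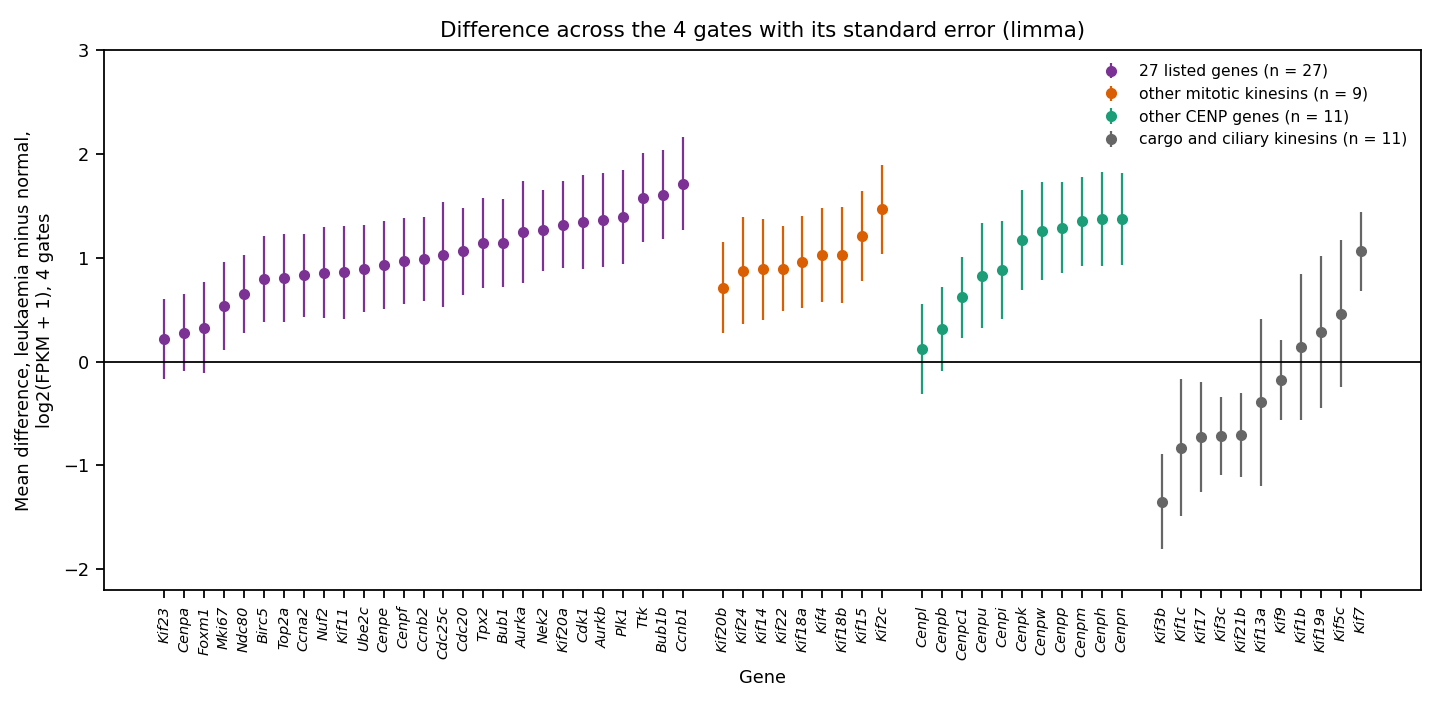
Mean difference of log2(FPKM + 1), leukaemia minus normal, over 4 gates for the 58 members tested. Points are limma estimates, bars are their standard errors, and colours are groups of members. All 27 listed genes lie above 0, whereas 7 of 11 cargo or ciliary kinesins lie below it.

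Of the 6 genes of the cyclin and CDK1 switch, which commits a cell to mitosis, 4 had every leukaemia above every normal population. For comparison, 16.0% of all tested genes did. Under median-ratio scaling Cdk1 and Ccnb1 still did, but Ccnb2 and Cdc25c had AML below normal myeloid cells. Cdk1, the mitotic cyclin-dependent kinase, had FPKM of 126, 115, 123 and 115 against 62.5, 15.2, 51.3 and 93.2. Its 4 leukaemia values lay within 1.10-fold of each other and all above the normal values, which spanned 6.12-fold. The mean difference was 1.35 ± 0.45 (SE, limma adjusted p = 0.089). Ccnb1, cyclin B1, had 129, 90.6, 115 and 90.2 against 50.2, 9.45, 32.8 and 59.2. All leukaemias again lay above all normal populations, and the difference, 1.71 ± 0.45, was the largest of the 58 members tested (limma adjusted p = 0.063). In the mm10 coordinates of the table, Ccnb1 lies at chr13:100778650-100786570. Ccnb2, the other B-type cyclin, had 90.1, 99.5, 82.4 and 99.9 against 60.5, 20.4, 48.5 and 75.5, also without overlap. Cdc25c, the phosphatase that activates CDK1, was the lowest of the listed genes, with 10.5, 9.97, 7.21 and 8.1 against 5.26, 1.13, 4.4 and 6.51. Ccna2, cyclin A2 of S phase and G2, overlapped between classes, with 119, 75.4, 69.2 and 85.5 against 81.6, 17.5, 46.6 and 75.2. Foxm1, a transcription factor of these genes, had 90.4, 61.6, 38.8 and 52.2 against 64.4, 18.5, 48.7 and 76.5. It was below its own normal gate in AML and AUL, and its difference was 0.32 ± 0.44.

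The mitotic kinases and checkpoint genes had the highest group median among the listed roles, 1.26 over 9 genes. Of the 9, 6 had every leukaemia above every normal population, against 16.0% of all tested genes. Under median-ratio scaling Plk1 and Aurka overlapped between classes, while Bub1b, Ttk, Aurkb and Bub1 did not. Bub1b, which encodes the checkpoint protein BUBR1, had 246, 184, 143 and 194 against 93.4, 22.5, 56.8 and 114. Its lowest leukaemia, AML, stood above its highest normal population, and its difference was 1.61 ± 0.43 (limma adjusted p = 0.063). Bub1b lies at chr2:118598211-118641591. Ttk, the checkpoint kinase MPS1, had 29.1, 21.2, 21.1 and 31.0 against 10.7, 2.56, 7.68 and 15.5, a difference of 1.58 ± 0.43. Plk1, the polo-like kinase of mitotic entry, had 105, 126, 82.9 and 106 against 49.1, 15.2, 47.4 and 64.0, and no values overlapped. Aurkb, the kinase of the chromosomal passenger complex, had 195, 135, 148 and 131 against 72.1, 20.2, 59.8 and 126. Its AUL value and its normal lineage-negative value were close, with a fold of 1.04 (95% interval for counting error alone 1 to 1.08). Aurka, the kinase of the spindle poles, had 49.2, 68.6, 63.6 and 55.7 against 29.4, 7.71, 31.0 and 46.4. T-ALL was the highest of the 8 libraries for Aurka and for Plk1. Bub1, which recruits checkpoint proteins to the kinetochore, had 59.0, 57.6, 57.8 and 64.7 against 38.3, 9.85, 26.1 and 48.3. Its leukaemia values spanned only 1.12-fold.

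The remaining 3 genes of this role overlapped between classes. Nek2, a kinase of centrosome separation, varied most among the leukaemias, with 85.1, 38.3, 23.9 and 38.2 against 38.2, 7.63, 9.88 and 26.0. B-ALL was 3.56-fold above AML, the widest range of the 27 listed genes within the leukaemias. Birc5, survivin of the passenger complex, had 47.9, 44.5, 36.1 and 47.5 against 30.9, 10, 27.8 and 42.6. Tpx2, the activator of Aurora A on spindle microtubules, had 73.7, 73.3, 57.4 and 73.1 against 41.5, 11.5, 31.2 and 57.9, and its AML value lay just under that of normal lineage-negative cells.

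Cdc20 and Ube2c, an activator and the ubiquitin-conjugating enzyme of the anaphase-promoting complex, were most abundant in B-ALL. Cdc20 had 215, 173, 115 and 170 against 103, 33.2, 89.2 and 120, with AML just below normal lineage-negative cells. Ube2c had 117, 79.7, 74.8 and 72.9 against 64.4, 16.4, 59.3 and 64.2, without overlap. Under median-ratio scaling its AML value lay below that of normal myeloid cells. Top2a, the topoisomerase that untangles sister chromatids, had the highest FPKM of all members in each library but normal T cells, where Kif21b was higher (211), with 525, 335, 237 and 363 against 319, 81.8, 174 and 354. Mki67, the chromosome surface protein used as a proliferation marker, had 160, 130, 80.8 and 129 against 112, 34.5, 92.0 and 136. Mki67 was below its own normal gate in AML and AUL, with log2 ratios of -0.18 and -0.08, and its difference across gates was 0.53 ± 0.42.

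**Figure D3:**
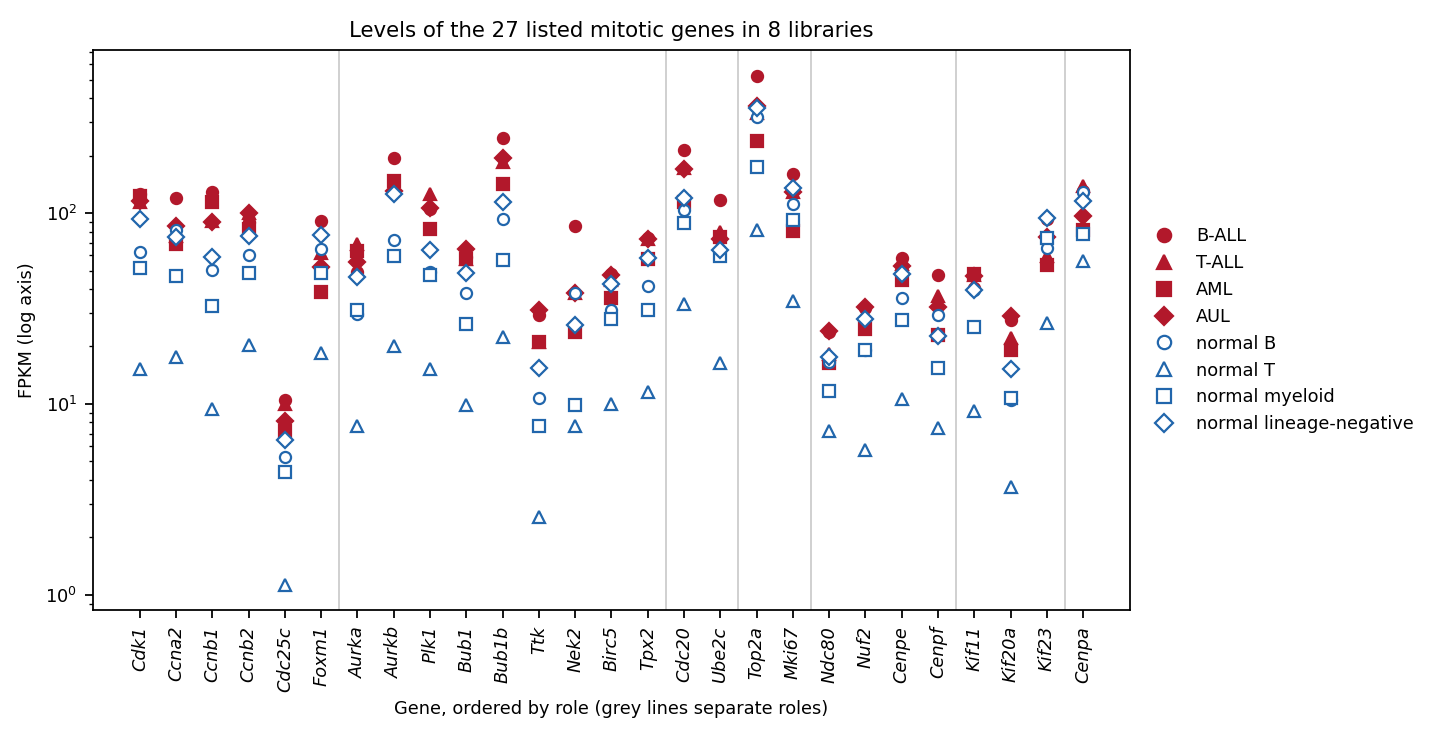
FPKM on a log axis of the 27 listed genes, ordered by role, with filled red symbols for leukaemias and open blue symbols for normal populations of the same gate (same shape). The open triangle, normal T cells, is the lowest of 8 libraries for all 27 genes.

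The kinetochore was described from the centromere outward. Cenpa, the centromeric histone, barely separated the classes, with 130, 138, 81.1 and 97.0 against 129, 55.9, 77.5 and 116 and a difference of 0.28 ± 0.37. The inner kinetochore genes, which bind CENP-A nucleosomes, had a median difference of 1.21 over 10 genes, all positive. Of the 10, 6 overlapped between classes and 4 had every leukaemia above every normal population, against 16.0% of all tested genes. Cenpn, which contacts CENP-A nucleosomes, had 47.0, 30.3, 28.1 and 28.0 against 19.4, 5.15, 7.84 and 24.2 (difference 1.38 ± 0.44, limma adjusted p = 0.085). Cenph, of the same assembly, had 39.9, 39.2, 46.4 and 40.8 against 17.4, 6.02, 13.5 and 37.5. Both separated the classes, by a narrow margin over normal lineage-negative cells. Cenpp had 13.2, 9.86, 12.7 and 15.3 against 6.49, 1.96, 3.32 and 9.11, without overlap. Cenpm was highest in AUL, with 22.9, 26.3, 13.7 and 50.3 against 15.6, 4.26, 5.18 and 20.4, and its AML value fell among the normal ones. Cenpl, chosen after its values were seen, had the smallest difference of this layer, 0.12 ± 0.44, which was -0.10 under median-ratio scaling. Cenpb, the protein that binds the centromeric CENP-B box, had 37.2, 43.4, 8.84 and 18.9 against 22.2, 20.1, 10.5 and 23.9, and AML was the lowest of the 8 libraries.

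In the outer kinetochore, the 4 listed genes all overlapped between classes. Ndc80 and Nuf2 form the rod that holds the microtubule. Ndc80 had 23.7, 18.3, 16.3 and 24.0 against 16.6, 7.21, 11.6 and 17.6. Nuf2 had 31.8, 29.5, 24.7 and 32.0 against 19.3, 5.74, 19.1 and 27.9. In both, AML was the lowest leukaemia and lay below normal lineage-negative cells. Cenpe, a kinesin that carries chromosomes to the spindle equator, had 58.2, 54.1, 44.5 and 52.6 against 35.9, 10.7, 27.4 and 47.8. Cenpf, a large kinetochore and nuclear envelope protein, had 47.4, 36.7, 23.1 and 32.1 against 29.1, 7.45, 15.4 and 22.7. Each of the 4 was higher in the leukaemia in 4 of 4 gates, against 25.9% of all genes. Under median-ratio scaling, however, each was lower in AML than in normal myeloid cells.

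The kinesins split by job. The 12 mitotic kinesins had differences of 0.22 to 1.46 with a median of 0.93, and all 12 were lowest in normal T cells. They include the centriolar kinesin Kif24, with a difference of 0.87 ± 0.52. Kif24 was lower in AUL than in normal lineage-negative cells, at 6.00 against 9.84. Kif2c, which depolymerises microtubules to correct attachments, had 67.2, 60.8, 44.0 and 70.6 against 27.3, 7.85, 24.2 and 35.9. All leukaemias exceeded all normal populations, and the difference was 1.46 ± 0.42 (limma adjusted p = 0.072). Kif11, the motor that separates the spindle poles, had 40.6, 47.6, 48.1 and 46.8 against 39.6, 9.14, 25.2 and 39.5. Its leukaemia values were within 1.18-fold of each other, and B-ALL was nearly level with normal B cells. Kif20a, of late mitosis and cytokinesis, had 27.4, 22.2, 19.1 and 29.0 against 10.4, 3.68, 10.7 and 15.3, also without overlap. Under median-ratio scaling Kif2c and Kif20a each had AML just below normal myeloid cells. Kif22, a chromosome arm motor, had 105, 82.9, 58.8 and 82.5 against 68.9, 17.2, 41.5 and 67.8. Kif23, the motor of the central spindle, had 93.0, 59.5, 53.7 and 75.2 against 65.3, 26.5, 73.8 and 94.2, overlapped between classes, and had a difference of 0.22 ± 0.38, which was -0.02 under median-ratio scaling.

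The cargo and ciliary kinesins had no common direction. Of 15, 11 were tested, 4 positive and 7 negative, with a median of -0.39, and 4 were too low to test (Kif1a, Kif5a, Kif26b and Kif27, all under 1 FPKM). Kif3b, a motor subunit of heterotrimeric kinesin-2, which also carries material into cilia, had 5.17, 4.03, 4.27 and 4.95 against 9.01, 14.2, 23.8 and 9.8. All leukaemias lay below all normal populations under both scalings, with a difference of -1.35 ± 0.46 (limma adjusted p = 0.092). Kif21b, an abundant motor of lymphocytes and neurons, had 80.0, 105, 47.4 and 80.7 against 134, 211, 141 and 58.4. Its deposited FPKM was highest in normal T cells, but under median-ratio scaling it was highest in normal myeloid cells, at 238 against 207 in normal T cells. By deposited FPKM it was higher than its normal gate only in AUL. Kif1c, a transport motor of the kinesin-3 family, was 0.414 in AML and 10.0 to 19.9 in the other 7 libraries, and its difference of -0.83 ± 0.66 was 0.01 without the myeloid gate. Kif3c and Kif17 were low, with at most 5.47 FPKM, and had differences of -0.72 ± 0.38 and -0.73 ± 0.53. Kif7, a ciliary kinesin of Hedgehog signalling named here after its values were seen, had 1.52, 2.18, 0.278 and 4.15 against 0.0906, 0.568, 0.0907 and 0.492. It was the single cargo or ciliary kinesin higher in 4 of 4 gates, against 25.9% of all genes.

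**Figure D4:**
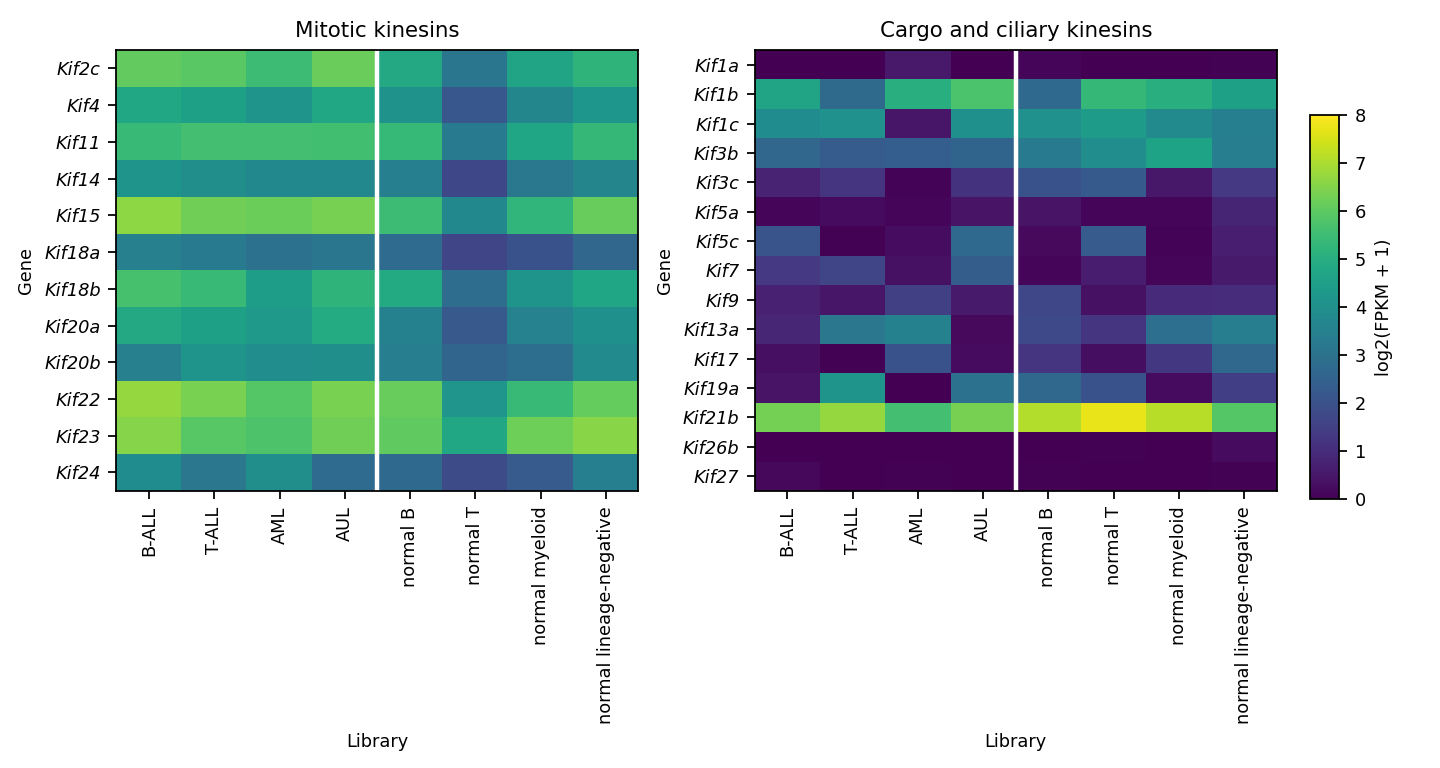
log2(FPKM + 1) of 12 mitotic kinesins (left) and 15 cargo or ciliary kinesins (right) in 8 libraries, with the white line between leukaemias and normal populations. The mitotic kinesins are darkest, and so lowest, in normal T cells, whereas Kif21b, in deposited FPKM, is brightest there.

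Counted over the members, 21 of 58 had all 4 leukaemias above all 4 normal populations, against 16.0% of all tested genes, and 13 of these were listed genes. The reverse held for Kif3b alone, against 10.5% of genes. With median-ratio scaling, 7 listed genes were higher without overlap (Aurkb, Bub1, Bub1b, Ccnb1, Cdk1, Ttk and Tpx2, of which Tpx2 overlapped before), against 15.2% of all genes. In 4 of 4 gates, 23 of 27 listed genes were higher in the leukaemia (25.9% of all genes); the exceptions were Cenpa, Foxm1, Kif23 and Mki67. Under median-ratio scaling this count was 9 of 27 (24.2% of all genes), so it depended on the scaling. The SD of log2(FPKM + 1) was smaller among the 4 leukaemias than among the 4 normal populations for 27 of 27 listed genes, against 64.3% of all genes. Without the T gate this held for 17 of 27, against 61.5%, close to the share of all genes. With median-ratio scaling and without the T gate it held for 13 of 27, against 58.9%.

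Each leukaemia was also set against the normal cells of its gate, without a replicate check. In the B gate, 9 of 27 listed genes were at least 2-fold higher and none lower, against 18.2% and 21.9% of all genes, and the median log2 ratio was 0.72. With median-ratio scaling 6 were higher, against 15.0% of genes. In the T gate all 27 were at least 2-fold higher, against 22.1% of genes, with a median of 2.24, and with median-ratio scaling 26 were, against 18.1%. Ccnb1 was 9.59-fold higher there (95% interval for counting error alone 8.77 to 10.5) and Cdk1 7.52-fold (6.95 to 8.15). In the myeloid gate 8 of 27 were at least 2-fold higher, fewer than the 43.3% of all genes that were, and the listed median, 0.68, was close to the all-gene median of 0.56. With median-ratio scaling those medians were -0.13 and -0.35, so the direction in this gate depended on the scaling. Then 0 of 27 were at least 2-fold higher and 3 lower, against 27.3% and 40.9% of all genes. Neutrophil transcripts made up a large part of the normal myeloid library (81789 summed FPKM of 7 markers), and their part in the myeloid comparison was not tested. In the lineage-negative gate 0 of 27 were at least 2-fold higher or lower on the log2(FPKM + 1) scale, against 13.6% and 29.5% of all genes, and the median was 0.28. Ttk had the largest ratio there, 0.96 on that scale, and 30.96 against 15.48 FPKM is a fold of 2 (95% interval for counting error alone 1.87 to 2.14). With median-ratio scaling 2 of 27 were higher, against 18.1%.

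The order of the libraries differed from gene to gene, but normal T cells were at its foot. They were the lowest of 8 libraries for 27 of 27 listed genes and for 45 of 47 mitotic machinery genes, against 6.98% of all genes. Of the 11 cargo and ciliary kinesins tested, 1 was lowest there, Kif9. The 27 listed genes stayed lowest there under median-ratio scaling. Among the leukaemias, AML was the lowest for 20 of 27 and B-ALL the highest for 17 of 27. Among the normal populations, lineage-negative cells were the highest for 21 of 27, but with median-ratio scaling normal myeloid cells were the highest for 21 of 27.

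The proportions among the listed genes differed between classes as well. Ratios within a library need no scaling between libraries, and these ratios were chosen after their values were seen. The ratio of Kif23 to Kif20a was 3.40, 2.68, 2.82 and 2.59 against 6.25, 7.22, 6.89 and 6.15. The leukaemias all lay below the normal populations, with means of 2.87 ± 0.36 and 6.63 ± 0.51 (SD, n = 4 each). The ratio of Foxm1 to Ccnb1 was 0.70, 0.68, 0.34 and 0.58 against 1.28, 1.96, 1.48 and 1.29, likewise without overlap. Plk1 to Foxm1 was 1.16, 2.05, 2.14 and 2.03 against 0.76, 0.82, 0.97 and 0.84. For comparison, 31.6% of all 351 pairs of listed genes separated the classes in this way. Expressed as shares of the summed FPKM of the 27 genes, Bub1b, Ccnb1, Kif20a and Ttk took a larger share in each leukaemia than in any normal population, and Foxm1, Kif23 and Mki67 a smaller one. Among all tested genes, 1.05% and 21.0% lay on those sides when divided by the same sum. With the geometric mean of the 27 as the divisor, 4 listed genes lay on each side, against 0.867% and 22.2% of genes, Cenpa being the further lower one. The 27 genes make up both divisors, so larger shares of some go with smaller shares of others. Genes outside the 27 are not bound in this way. The percentages of all genes are therefore not a like comparison, and no excess is read from them. The summed listed genes over 28 DNA replication genes gave ratios of 0.73, 0.60, 0.60 and 0.51 against 0.89, 0.46, 1.25 and 0.60, which overlapped.

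**Figure D5:**
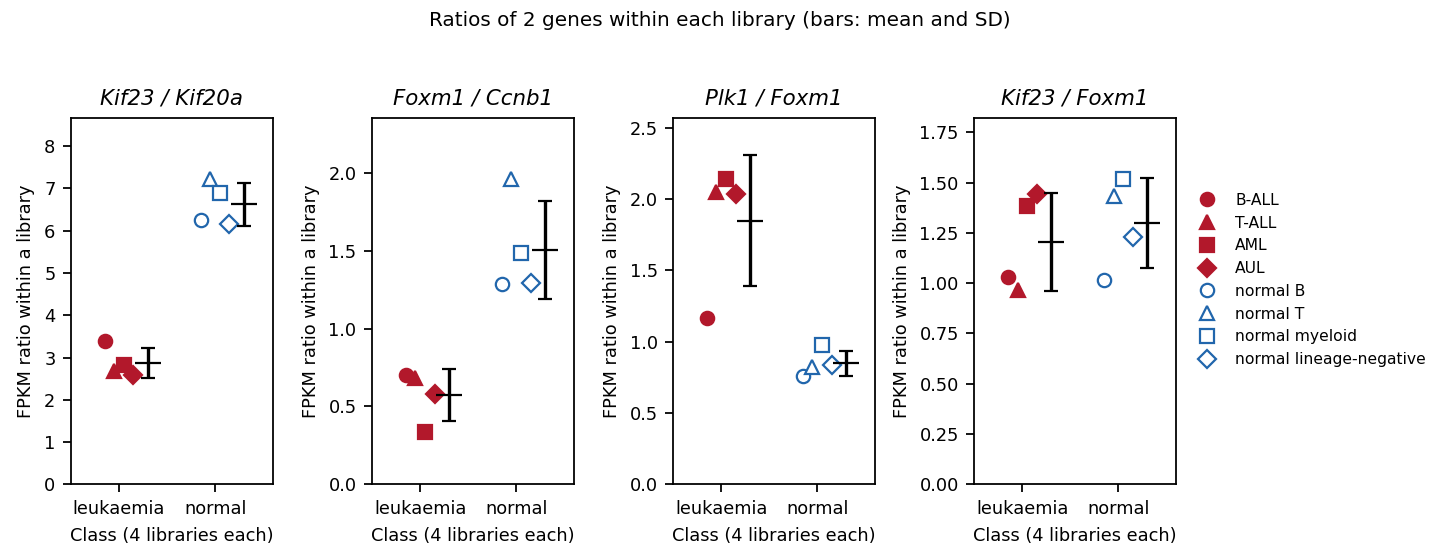
FPKM ratios of 2 genes within each library for 4 leukaemias (red) and 4 normal populations (blue), with the mean and SD of 4 libraries at the right of each class. The classes are apart for the ratios of Kif23 to Kif20a, Foxm1 to Ccnb1 and Plk1 to Foxm1, and overlap for Kif23 to Foxm1.

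The other genes of these pathways gave 1 call, higher, among the 99 tested. Of all genes tested, 1.26% passed higher and 3.69% in either direction, so the pathway lists held no excess of calls. Npm1, a nucleolar histone chaperone of the CENP-A loading list (1 of 7 passed, higher), rose in the leukaemias, with 2232, 2170, 1762 and 3045 against 438, 614, 84.9 and 757 FPKM. Its difference was 2.63 ± 0.53 (limma adjusted p = 0.046), and its reads can be shared with its many pseudogenes. With a gate left out, its difference was 2.06 to 2.90 and its adjusted p 0.058 to 0.127, so the call needed all 4 gates. It was also lost without the gate block, at 0.068, and without a filter on low FPKM, at 0.103. In the spindle assembly checkpoint list 0 of 10 passed. Trip13, an ATPase that recycles the checkpoint protein MAD2, had 18.4, 19.1, 21.2 and 14.4 against 3.68, 1.57, 3.81 and 9.79, with a difference of 1.94 ± 0.51. Zwilch and Kntc1, of the complex that brings dynein to kinetochores, had differences of 1.54 and 1.52. In the list of the Knl1, Mis12 and Ndc80 complexes 0 of 9 passed, and the median was 1.05. Of 23 condensin and cohesin genes 12 had deposited values. None of these passed, and the largest difference was that of Espl1, the separase that cuts cohesin (1.72 ± 0.45). Cdca8 and Incenp, the passenger complex partners of Aurora B, had differences of 1.04 and 0.87, and 0 of 3 passed.

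Regulators of CDK1 went both ways, with 0 of 16 passed (3.69% of all genes tested passed), 8 positive and 8 negative. Bora, an activator of PLK1, had a difference of 1.78 ± 0.46, and Cks1b, a CDK subunit, 1.64 ± 0.42. Plk2 and Plk3, stress-related relatives of Plk1, had -2.07 ± 0.60 and -1.77 ± 0.70. Plk3 was 138 FPKM in normal myeloid cells and 5.02 to 28.8 in the other libraries. In the B gate Plk3 was higher in the leukaemia, with 7.48 against 6.54. Plk1 itself had 1.39 ± 0.45, so members of the polo family lay on opposite sides. In the anaphase-promoting complex list 0 of 5 passed, in cytokinesis 0 of 9 and in spindle microtubule proteins 0 of 15. Only 5 of the 18 genes of the anaphase-promoting complex list had deposited values. Stmn1, which destabilises microtubules, had 1.78 ± 0.41 (limma adjusted p = 0.056). Of 21 genes for the DREAM and MuvB transcription factors 13 had deposited values, of which 0 passed and 6 were positive. Mybl2, which encodes B-MYB, had 126, 85.8, 234 and 76.7 against 33.0, 9.71, 21.7 and 71.7, with a difference of 2.10 ± 0.55, and was highest in AML. Foxm1, which acts with it, was lowest of the leukaemias in AML. Among 28 DNA replication genes 1 passed, higher, against 1.26% of all genes tested. It was Pole, the catalytic subunit of a replicative polymerase (difference 1.85 ± 0.40, limma adjusted p = 0.0497). The median of the 28 was 1.34 against 0.99 for the listed mitotic genes. The Pole call was lost with any gate left out, at adjusted p of 0.066 to 0.148, and at 0.058 without a variance trend, 0.071 without the gate block and 0.0995 without a filter on low FPKM.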

How the data were processed

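The authors deposited a table of FPKM values for 16434 genes in 8 libraries, 1 per group. Per the labels' protocols, mRNA was enriched on oligo(dT) beads and copied from random primers, and paired reads of 150 bases were compared with mm10 after removal of adaptor-bearing or ambiguous ones. The submitters' processing notes name STAR, HTSeq and edgeR, with no version, setting or role. The rule by which genes entered the table was not given in the sources used here, so shares of genes hold for this table only.

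Values were tested as log2(FPKM + 1) with limma 3.58.1 in R 4.3.3 (lmFit, eBayes with a trend, two-sided), for genes that reached an FPKM of 1 in 2 or more libraries. The model had the sort gate as a block of 4 levels and a threshold of 0.05 on p adjusted by Benjamini-Hochberg. Leukaemia and normal libraries are paired by gate alone, since no label ties them to an animal. Differences are on the log2(value + 1) scale and understate the change of low genes. A member was called 2-fold within a gate at an absolute log2 ratio of at least 1 where the higher library reached an FPKM of 1. Fragments were recovered from the FPKM with the mean transcript lengths of GENCODE vM21. With a tolerance of 0.05 of a fragment, 88.7% to 90.7% of tested low values were whole, and 96.4% to 97.4% for genes with 1 transcript. Intervals are 95% and cover counting error only. No count model was run on the recovered fragments. The fit was also run on simulated data with less noise than these libraries and the same shift in all 4 leukaemias. That run cannot bear on the calls made here.

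Named genes were the 27 listed ones, the 5 highest and 5 lowest of the other kinesin and Cenp rows by mean difference, the highest gene of each group, up to 4 genes of each pathway list, all that passed, and Mycn; any other was named after its values were seen. The members and lists were chosen with earlier results of these data known. The alternatives were median-ratio scaling, a pseudocount of 0.1, other FPKM minimums and folds, no gate block, no trend, each gate left out, and a shorter promoter window.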

Additional observations from a re-analysis of the deposited data

Results flagged for a closer look

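In 4 cargo kinesins, the leukaemia differed from the normal cells of its gate by at least 2-fold in opposite directions in different gates. The difference between gates was not tested, since each gate has 1 library of each kind, and these genes were chosen after their values were seen. Kif1b, a motor of mitochondria and synaptic vesicle precursors, had 24.7, 5.79, 31.4 and 51.9 FPKM in the leukaemias, in the order used above, against 5.68, 39.5, 31.1 and 22.3 in the normal cells. Its log2 ratios were 1.94 in the B gate and 1.18 in the lineage-negative gate but -2.58 in the T gate. Kif5c, a kinesin-1 heavy chain, had log2 ratios of 1.86 in the B gate and 2.05 in the lineage-negative gate but -2.26 in the T gate, where T-ALL had 0.029 FPKM against 3.94. Kif19a, which shortens microtubules in cilia, had log2 ratios of 2.12 in the T gate and 1.54 in the lineage-negative gate but -2.26 in the B gate. Kif13a, an endosome motor, had 1.94 in the T gate but -3.20 in the lineage-negative gate, where AUL had 0.155 FPKM against 9.63.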

How the results depend on the processing

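No member passed limma in 9 of the alternatives run across gates, and 3 passed, all higher (Bub1b 0.0494, Ccnb1 0.0486 and Ttk 0.0499, adjusted p), when a gene had to reach an FPKM of 5 in 2 or more libraries, which left 8069 genes to test. Without the gate block (no replicate block) 0 members passed, and 41 genes did in all against 408 with it. Over all genes, 839 passed with a pseudocount of 0.1, 858 with median-ratio scaling, 3 without a filter, 941 with the stricter filter, and 0 to 169 with a gate left out. Across the alternatives the adjusted p of Ccnb1 ran from 0.0486 to 0.181.

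Some differences changed sign. Median-ratio scaling gave -0.105 for Cenpl, -0.0941 for Kif1b and -0.0239 for Kif23, and a pseudocount of 0.1 gave -0.20 for Kif19a. With each gate left out in turn, differences ranged over -0.0565 to 0.457 for Cenpa, -0.19 to 0.27 for Cenpl, -0.13 to 0.61 for Foxm1, -1.17 to 0.54 for Kif13a and -0.32 to 1.14 for Kif19a. They ranged over -0.46 to 1.05 for Kif1b, -1.28 to 0.00742 for Kif1c, -0.0896 to 0.440 for Kif23, -0.0668 to 1.37 for Kif5c and -0.426 to 0.0899 for Kif9.

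Within gates, 1.5-fold in place of 2-fold gave 19 listed genes higher in the B gate, 15 in the myeloid gate and 5 in the lineage-negative gate, and 3-fold gave 0 and 1 in the B and myeloid gates. Median-ratio scaling gave listed medians of 0.59, 2.07, -0.13 and 0.45 in the B, T, myeloid and lineage-negative gates, 0 higher and 3 lower in the myeloid gate, 2 higher in the lineage-negative gate, and 7 listed genes without overlap. The cause of these changes was not tested.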
